A study of Arabidopsis thaliana with 18 samples.

Results

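All 16 insertion-line libraries of the series, taken as one side, were set against the wild type Col-0, to find which functions hold the genes at which Col-0 lay beyond every mutant library. All 18 libraries of the series entered: 16 mutant libraries and 2 Col-0 files, which were counted as 1 sample. The mutants were putative transparent testa (tt) lines of Arabidopsis thaliana, named for the pale seed coat that loss of flavonoid pigments gives. Each allele had 1 library and each library 1 allele: ban-6 and ban-7, tt1-4 and tt1-5, tt3-3 and tt3-4, tt5-3 and tt5-4, tt8-7, tt8-8, tt8-9, tt8-10, tt8-11 and tt8-12, and ttg1-23 and ttg1-24. Enzymes are encoded by BAN (anthocyanidin reductase), TT5 (chalcone isomerase) and TT3, also called DFR (dihydroflavonol reductase), and regulators by TT8 (bHLH), TTG1 (WD40) and TT1 (zinc finger). Which line a library comes from rests on its label, and the labels say nothing of zygosity or backcrossing. The line names put 9 of the mutants in the SALK, 6 in the SAIL and 1 in the GK insertion collection. Mutant and Col-0 seedlings shared the condition that the labels name AIC without spelling it out: 24 h light and shaking with 3% sucrose, over 4 days. The RNA came from whole seedlings, and in such bulk samples fewer cells of a type and less RNA per cell cannot be told apart.

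Land plants seal their surfaces with polymers. Suberin is a polyester of fatty acids, glycerol and phenolics laid down in the root endodermis and periderm, cutin and wax cover the shoot epidermis, and lignin stiffens xylem walls. The phenolic parts of these polymers and the flavonoids draw on the same phenylpropanoid precursors. Plant cells also make RNAs that encode no protein: small nucleolar RNAs (snoRNAs) guide the chemical modification of ribosomal RNA, and TAS transcripts are cut by microRNAs and turned into trans-acting small interfering RNAs.

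The total count of a mutant library ranged from 8057534 in ttg1-24 to 27145377 in tt3-4, and the Col-0 files held 16185800 and 15906406. Between the Col-0 files the counts of 18979 genes agreed within sampling noise, with a chi-square of 0.222 per degree of freedom, and their mean stands as 1 sample. Levels are counts per 1e+06 counts (CPM) after scaling by the trimmed mean of M values (TMM). A count of 3, used as the floor wherever a ratio was taken, equals 0.109 to 0.412 CPM in the mutant libraries and 0.2 CPM in Col-0. Of the targeted loci, TT5 lay between 4.13 CPM in tt5-3 and 87.2 CPM in the mutants, against 46.5 CPM in Col-0, and TTG1 between 0 counts in ttg1-24 and 28.6 CPM, against 32.6 CPM in Col-0. DFR ranged from 0 counts in ttg1-24 to 270 CPM, against 67.7 CPM in Col-0, and TT8 from 0.274 to 108 CPM, against 12.4 CPM. None of these 4 was called in this comparison. BAN and TT1 did not pass the filter on low counts, with at most 0.0915 CPM for BAN and 0.0368 CPM for TT1 in any mutant library, against 0.0668 CPM for BAN and 0 counts for TT1 in Col-0, so they could not be compared at this depth.

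A gene was called when the edgeR quasi-likelihood test gave an adjusted p under 0.05. With 1 Col-0 sample, that test takes the spread among the 16 mutant lines to hold for Col-0 too. Of 18639 genes tested, 590 were called (3.17%): 351 were higher in the mutants (1.88%) and 239 lower (1.28%), and 3623 had an unadjusted p under 0.05. All 590 were genes at which Col-0 lay outside the range of the 16 mutant libraries. Col-0 lay below every mutant library at 2882 genes (15.5%) and above every one at 3013 (16.2%). A margin of 2-fold or more to the nearest mutant library was met by 176 genes with Col-0 low (0.944%) and by 53 genes with Col-0 high (0.284%). These 2-fold sets have no test, since an exact one-sided permutation of 1 sample against 16 cannot give a p below 0.0588. Of the 176 genes 103 were also called, and of the 53 genes 33. Just inside the fold of 2 lay AT1G52820 at 2.001 and AT1G30760 at 2.002, and just outside it AT5G56520 at 1.998 and PRP4 at 1.994. In the 2-fold sets the median gene had 6.14 CPM in the mutants against 1.2 CPM in Col-0 where Col-0 was low, and 2.04 CPM in the mutants against 10.3 CPM in Col-0 where it was high.

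**Figure D1:**
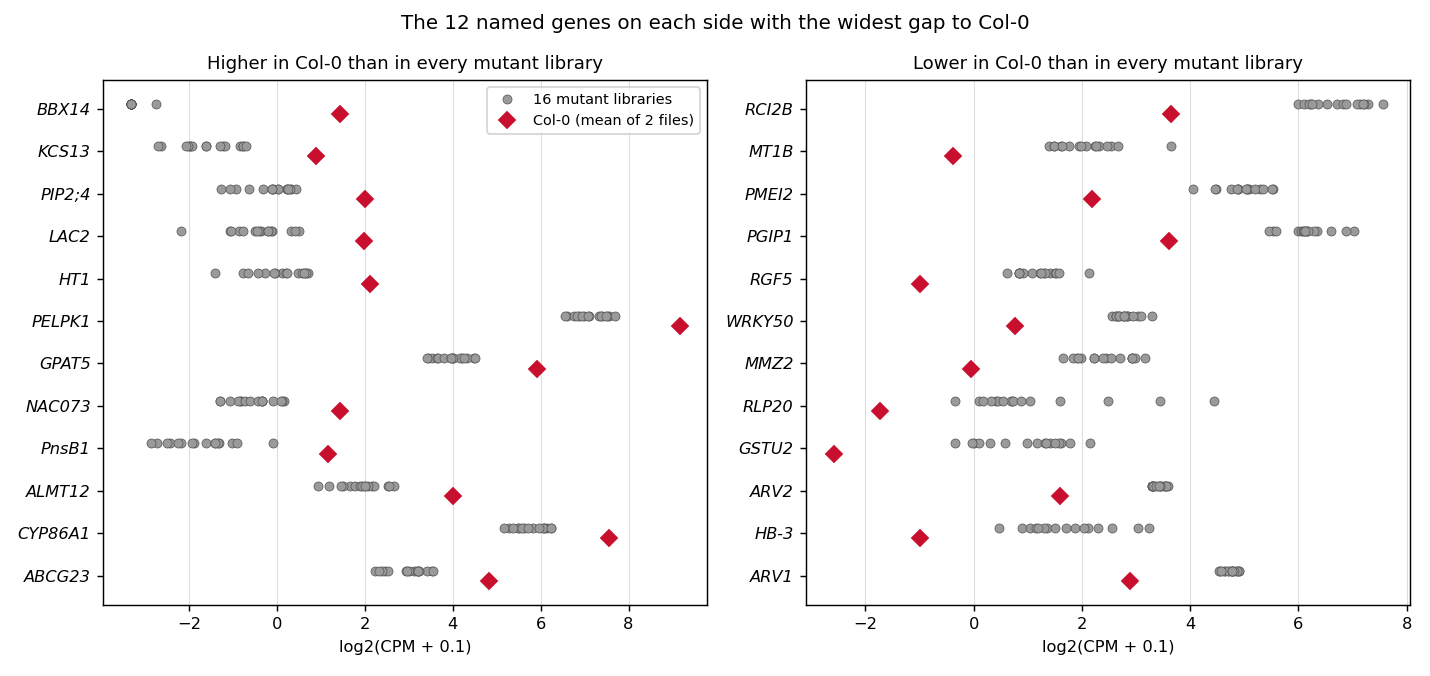
Levels of the 12 genes with a symbol and the widest gap between Col-0 and the nearest mutant library on each side, on a log2(CPM + 0.1) scale. Grey points are the 16 mutant libraries, and the red diamond below them is Col-0 (mean of 2 files). In every row Col-0 lies clear of all 16 points: on the left the mutants are lower, on the right they are higher.

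The Col-0 sample stood apart in the kind of transcript as well as in single genes. Of 195 tested genes that the TAIR10.1 annotation does not class as protein-coding, 36 were called higher in the mutants and 0 lower, against 1.88% and 1.28% of all genes tested. Col-0 lay below every mutant library at 97 of them and above every one at 9, with a margin of 2-fold at 37 on the low and 0 on the high side. The median log2 fold change of the 195 was 0.84, beside 0.01 over all genes tested. Such genes made up 21% of the 176 genes 2-fold low in Col-0, 0% of the 53 genes 2-fold high and 1.05% of all genes tested. Long noncoding RNAs (22 of 110 called higher, median 0.86), the class named only ncRNA (10 of 78, median 0.65) shared this direction. Of the 195 genes 45 had less than 1 CPM in Col-0 and so passed the filter, a mean of both sides of at least 1 CPM, through the mutants alone. They hold 17 of the 36 calls, whose direction that filter fixes, and 19 calls are at genes with at least 1 CPM in Col-0. Of the 195 genes 26 were called higher with the GC offset, which corrects each library for exonic GC content, 21 with line ends as a term, 22 without the SAIL lines and 53 in DESeq2.

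All 5 tested snoRNA genes passed the filter through the mutants alone, so no test of them is given. At 4 of them Col-0 had 0 to 3 counts, and 3 of these are short enough to print whole. They were named after their values were seen. Their sequences, from RefSeq for TAIR10.1, are given on the gene's own strand, with capitals marking TGATG and CTGA, the core of the C and D boxes by which one class of snoRNA is recognised, which overlap where CTGATG occurs.
AT1G74453: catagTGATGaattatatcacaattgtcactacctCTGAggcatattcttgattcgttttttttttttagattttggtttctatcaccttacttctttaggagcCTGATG
AT1G09467: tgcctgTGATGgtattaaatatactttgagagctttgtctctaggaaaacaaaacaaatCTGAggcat
AT2G08765: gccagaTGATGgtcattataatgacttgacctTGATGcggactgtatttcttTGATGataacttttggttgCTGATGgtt
The first is at chr1:27984604-27984713, the second at chr1:27984975-27985042 and the third at chr2:15029575-15029654, each on the minus strand. Of 285 annotated snoRNA genes of up to 300 bases, 62.8% hold TGATG, 81.4% CTGA and 59.6% both on that strand, so the letters are common in the class.

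AT1G74453 lay at 2.61 CPM at its lowest (ttg1-24), 6.13 CPM at the median and 7.66 CPM at its highest (tt8-9) in the mutants, against 0.2 CPM, or 3 counts, in Col-0. No mutant library came near the Col-0 level. Its neighbour AT1G09467 lay at 1.65, 3.72 and 4.18 CPM (lowest, median and highest) in the mutants against 0 counts in Col-0, where 0 counts allow up to 0.2 CPM. By the floor of 3 counts per library it was at least 8.22-fold higher in every mutant library. AT5G02565 (chromosome 5, 5448918 to 5449170) lay at 1.58 to 2.79 CPM in the mutants, against 0.134 CPM, or 2 counts, in Col-0. AT2G08765 lay at 1.51 to 2.57 CPM in the mutants, against 0.134 CPM in Col-0. Col-0 lay below every mutant library at these 4 of the 5 tested snoRNA genes, beside 15.5% of all genes. The 4 were named for their low Col-0 counts, so their lack of overlap is no test.

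Of 6 TAS transcripts 3 were called higher in the mutants and 0 lower, beside 1.88% and 1.28% of all genes, and their median log2 fold change was 1.67, beside 0.01 over all genes. TAS1B and TAS1C had less than 1 CPM in Col-0 and passed the filter through the mutants alone. TAS1C is 1 of the 3 calls, and the filter fixes the side of that call. With the GC offset its call was lost, 2 were called and the median was 1.47. The summed level of the 6 was 23.1 to 57 CPM in the mutants, against 11.7 CPM in Col-0. TAS2 (AT2G39681, chromosome 2, 16539384 to 16540417), cut by miR173 and a source of small RNAs against pentatricopeptide repeat genes, lay at 5.23, 11.2 and 13.8 CPM (lowest, median and highest) in the mutants, against 1.74 CPM in Col-0. TAS1A (AT2G27400) lay at 8.54, 13.8 and 20.3 CPM in the mutants, against 3.2 CPM in Col-0. In both, Col-0 was below the lowest mutant, which was ban-6. The log2 fold changes were 2.59 ± 0.52 for TAS2 (SE, adjusted p = 0.0119) and 2.1 ± 0.44 for TAS1A (adjusted p = 0.0141). TAS1C, which neighbours TAS2, lay at 2.34 to 5.86 CPM in the mutants, against 0.935 CPM in Col-0. TAS3 at 0.85 (adjusted p = 0.393) and the listed locus AT3G25795 at 0.35 (0.874) did not pass. Without the SAIL lines TAS2 and TAS1A missed the threshold, at adjusted p = 0.0573 for TAS2 and 0.0809 for TAS1A, with log2 fold changes of 2.55 and 2.06. Of 482 tested pentatricopeptide or tetratricopeptide genes, 9 were called higher and 0 lower, 1.87% against 1.88% of all genes, while Col-0 lay below every mutant library at 21.2% of them and above every one at 9.13%. AT2G26790 lay at 5.69 to 11.0 CPM in the mutants against 2.54 CPM in Col-0 (1.69 ± 0.35, adjusted p = 0.0142).

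The suberin genes that passed the test were lower in the mutants. Of 20 listed genes of suberin synthesis, export and regulation 19 passed the filter, of which 7 were called lower and 0 higher, beside 1.28% and 1.88% of all genes. Col-0 lay above every mutant library at 13 of the 19, at least 2-fold so at 5, and below every one at 0, beside 16.2%, 0.284% and 15.5% of all genes. The median log2 fold change was −1.23, beside 0.01 over all genes, and the list's summed level was 453, 727 and 1020 CPM (lowest, median and highest) in the mutants, against 1690 CPM in Col-0. The sums do not overlap, but neither do those of some lists with 0 calls. These were 1000 to 2070 CPM in the mutants against 3030 CPM in Col-0 for glucosinolate and 1520 to 2950 against 3320 CPM for sugar genes. Ethylene and cytokinin genes had 462 to 886 against 1140 CPM. On the other side, mitochondrial stress genes had 484 to 2060 against 469 CPM. The called genes span the pathway, and those past the first 4 of each list were named after their values were seen.

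CYP86A1 (AT5G58860, chromosome 5, 23765791 to 23768111), which adds the terminal hydroxyl group to suberin fatty acids, lay at 36 CPM (tt1-5), 54.6 CPM and 75.3 CPM (ttg1-23) at its lowest, median and highest in the mutants, against 187 CPM in Col-0. Its log2 fold change was −1.74 ± 0.28 (adjusted p = 0.00353). Every mutant stood well apart from Col-0. GPAT5 (AT3G11430, chromosome 3, 3595694 to 3597952), an acyltransferase that joins suberin acids to glycerol, lay at 10.6, 15.7 and 22.5 CPM in the mutants, against 60.5 CPM in Col-0 (−1.93 ± 0.28, adjusted p = 0.00209). Its relative GPAT7 lay at 4.39, 8.71 and 14.2 CPM in the mutants, against 29.1 CPM in Col-0 (−1.82 ± 0.39, adjusted p = 0.0163). CYP86B1, a hydroxylase of very long fatty acids, stood at −1.69 ± 0.35 (adjusted p = 0.0141). Both transporters on the list that were called, ABCG20 and ABCG6, carry suberin precursors out of the cell. ABCG20 lay at 21.4, 31.1 and 37.0 CPM in the mutants, against 84.8 CPM in Col-0 (−1.49 ± 0.18, adjusted p = 4.04e-04). ABCG6 lay at 20.3, 32.4 and 62.7 CPM, against 122 CPM (−1.75 ± 0.36, adjusted p = 0.0132). The alcohol-forming reductase FAR1 stood at −1.07 ± 0.22 (adjusted p = 0.0141). The feruloyl transferase RWP1 (−1.51, adjusted p = 0.0796) and the elongases KCS2 (−1.57, 0.0827) and KCS20 (−1.08, 0.0786) lay outside the mutant range without passing the test. The suberin regulator MYB41 lay at 1.04 to 7.54 CPM in the mutants, around the 3.54 CPM of Col-0, and MYB39 at 0.379 to 5.9 CPM, around 2.0 CPM. The suberin count was 7 to 10 with 1 mutant library left out, with the 10 without ban-6, and it was 7 with the GC offset, 4 without the SAIL lines and 3 with line ends as a term.

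Of 26 listed genes of cutin and wax 20 passed the filter, 5 were called lower in the mutants and 0 higher, beside 1.28% and 1.88% of all genes. Col-0 lay above every mutant library at 14 and below every one at 0, beside 16.2% and 15.5% of all genes. The median was −1.16, and the summed level was 740, 878 and 1380 CPM (lowest, median and highest) in the mutants, against 1980 CPM in Col-0. CYP86A2 (AT4G00360), a hydroxylase of cutin fatty acids, lay at 44.6, 68.3 and 106 CPM in the mutants, against 253 CPM in Col-0 (−1.82 ± 0.31, adjusted p = 0.00523). It overlaps genes on the other strand, and the strand setting of the counting is not given in the sources used here. GPAT4 (AT1G01610), which makes cutin precursors, lay at 28.5, 42.9 and 76.8 CPM in the mutants, against 160 CPM in Col-0 (−1.83 ± 0.33, adjusted p = 0.00792), with ban-7 lowest and ban-6 highest. GPAT6, a further cutin acyltransferase, stood at −1.41 ± 0.31 (adjusted p = 0.0211), the cutin acyltransferase PEL3 at −1.28 ± 0.30 (0.0299) and the wax elongase KCS1 at −1.41 ± 0.37 (0.0473). With the GC offset 2 of the 5 were called. The KCS1 call was lost with any of 8 mutant libraries left out, and the count was 4 to 9 over the left-out libraries, with the 9 without ban-6, and 1 without the SAIL lines.

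Of 23 lignin genes, all tested, 4 were called lower in the mutants and 0 higher, beside 1.28% and 1.88% of all genes. Col-0 lay above every mutant library at 16, beside 16.2% of all genes, and the median was −1.06. The summed level of 3140, 3920 and 6160 CPM (lowest, median and highest) in the mutants overlaps the 6080 CPM of Col-0. CCR1 (AT1G15950, chromosome 1, 5478603 to 5482180), the reductase that commits phenylpropanoids to lignin, lay at 16.1 CPM (ban-7), 24.9 CPM and 42.1 CPM (ban-6) in the mutants, against 81.9 CPM in Col-0. Its log2 fold change was −1.69 ± 0.32 (adjusted p = 0.00974). The methyltransferase OMT1 lay at 62.3, 116 and 207 CPM, against 358 CPM (−1.52 ± 0.39, adjusted p = 0.0439). PAL4, which starts the phenylpropanoid pathway, stood at −1.31 ± 0.34 (0.0456), and LysoPL2, listed as the esterase of lignin synthesis, at −0.95 ± 0.25 (0.0425). The monolignol glucosyltransferase UGT72E2 lay at 26.8 to 158 CPM, against 272 CPM, and did not pass (−1.92 ± 0.58, adjusted p = 0.0765), nor did the laccase IRX12 (−1.30 ± 0.35, 0.053). The lignin count was 1 without tt8-8, 6 without ban-6, 2 with the GC offset and 0 without the SAIL lines, where the median was −0.99. OMT1 was lost with any of 7 and PAL4 with any of 9 libraries left out. In the 2 mutant libraries whose files share the Windows line ends of the Col-0 files, the summed suberin level was 677 CPM in tt8-8 and 648 CPM in tt8-11. The cutin and wax sums were 1120 and 935 CPM there, above the mutant median of 878 CPM, and the lignin sums 3890 and 3760 CPM. With line ends as a term the counts called lower were 3 for suberin, 1 for cutin and wax and 0 for lignin, and the medians were −1.43, −1.02 and −1.07.

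**Figure D2:**
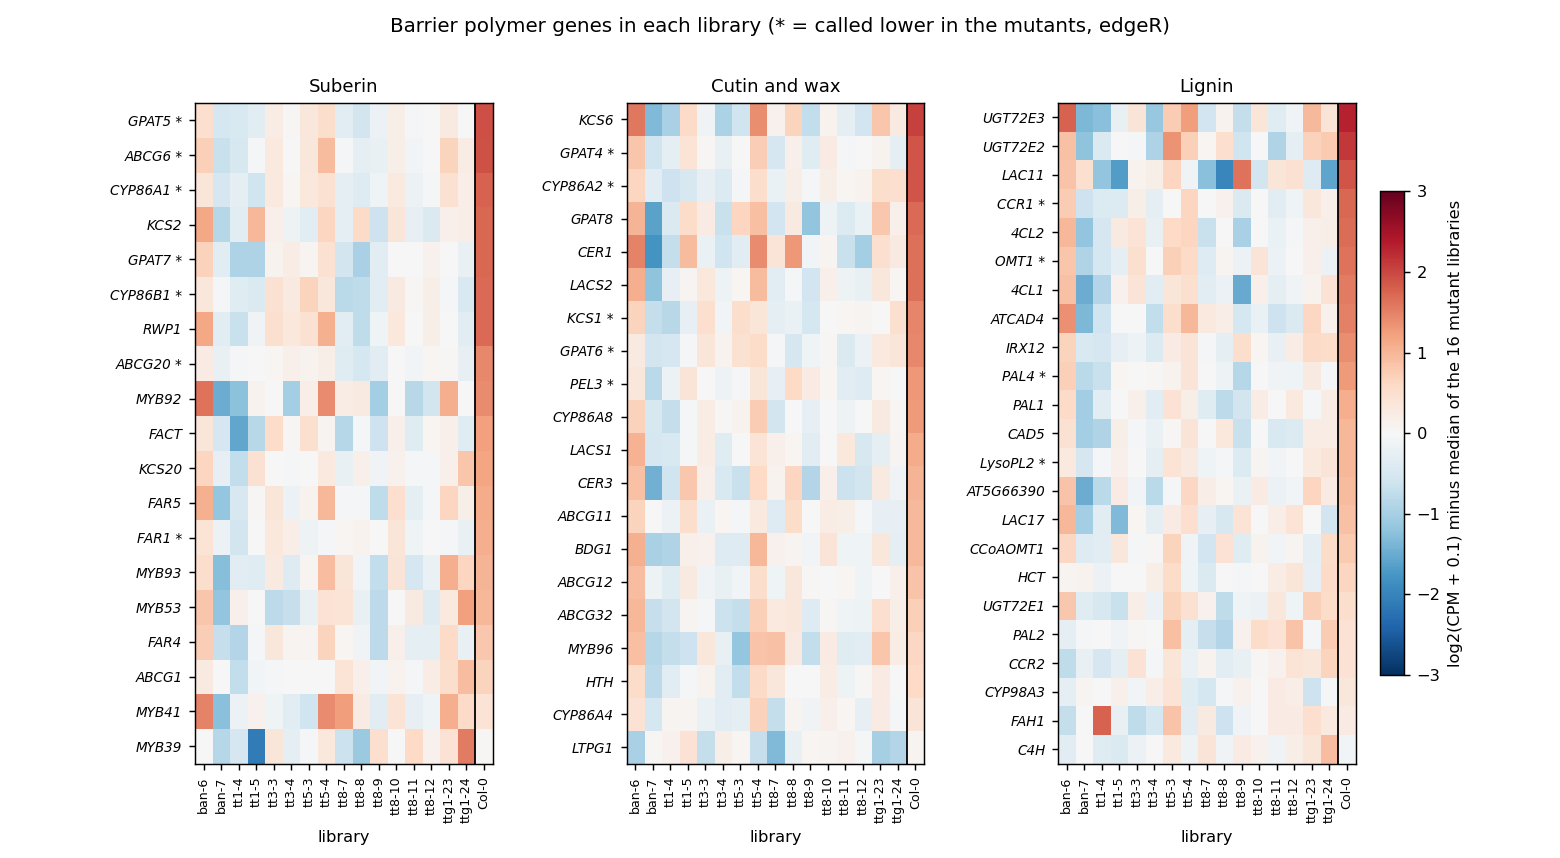
Heat map of log2(CPM + 0.1) for the tested suberin, cutin and wax, and lignin genes in each library, minus the median of the 16 mutant libraries, with mutants in the columns to the left of the black line and Col-0 to the right; an asterisk marks genes called lower in the mutants by edgeR. Col-0 is the reddest column for most genes, ban-6 and tt5-4 are the mutants nearest to it at many of them and ban-7 is among the bluest.

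AC elements are motifs bound by MYB factors in promoters of phenylpropanoid genes. The AC-I element reads ACCTACC, the AC-II element reads ACCAACC and the AC-III element reads ACCTAAC. They were searched on both strands in the 250 bases before the start of each of the 18639 tested genes, and 6.13% of these windows held at least 1. Of the 16 suberin, cutin and wax, and lignin genes called lower, 2 did (12.5%), GPAT7 and CCR1, both with ACCAACC, a motif in 2.79% of all windows. The windows of these genes and of GPAT5, which has none of the 3 motifs there, are printed to show what lies ahead of the genes described above, with motif matches in capitals.
GPAT5: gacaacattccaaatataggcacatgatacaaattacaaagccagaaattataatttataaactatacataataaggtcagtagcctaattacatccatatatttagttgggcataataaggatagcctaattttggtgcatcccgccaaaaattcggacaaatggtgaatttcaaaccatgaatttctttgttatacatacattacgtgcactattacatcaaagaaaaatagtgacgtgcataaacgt
GPAT7: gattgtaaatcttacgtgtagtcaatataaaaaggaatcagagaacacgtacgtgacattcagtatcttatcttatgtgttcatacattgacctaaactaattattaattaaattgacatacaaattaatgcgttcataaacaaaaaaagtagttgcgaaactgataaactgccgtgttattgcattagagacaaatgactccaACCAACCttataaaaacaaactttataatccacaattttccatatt
CCR1: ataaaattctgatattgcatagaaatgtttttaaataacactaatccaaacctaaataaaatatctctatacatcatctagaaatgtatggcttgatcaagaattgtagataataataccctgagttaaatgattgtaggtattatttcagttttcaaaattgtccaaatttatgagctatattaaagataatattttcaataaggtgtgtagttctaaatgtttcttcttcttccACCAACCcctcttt
They lie at chr3:3595444-3595693, chr5:1834797-1835046 and chr1:5478353-5478602 of TAIR10.1, all on the plus strand.

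Of the other genes lower in the mutants by the naming rule, PELPK1 (AT5G09530), a proline-rich wall protein, lay at 94.2, 136 and 207 CPM (lowest, median and highest) in the mutants, against 575 CPM in Col-0 (−2.0 ± 0.28, adjusted p = 0.00157). ALMT12 (AT4G17970), the anion channel that lets guard cells close stomata, lay at 1.81, 3.81 and 6.28 CPM, against 15.9 CPM (−2.04 ± 0.39, adjusted p = 0.00899). Neither overlaps Col-0. HT1, a kinase of the stomatal response to carbon dioxide that was not on the guard cell list, stood at −2.06 ± 0.48 (adjusted p = 0.0277). Of 7 tested guard cell genes, ALMT12 was the 1 called, beside 1.28% of all genes called lower, and Col-0 lay above every mutant library at 4, beside 16.2% of all genes, with FMA at −1.07 (adjusted p = 0.194) among them. The list's summed level in Col-0, 204 CPM, lay within the 176 to 381 CPM of the mutants. The transporter ABCG23 stood at −1.83 ± 0.35 (adjusted p = 0.00899). A further 5 genes averaged under 1 CPM in the mutants, passed the filter through Col-0 alone and are given by level only. The mutant means and Col-0 levels were 0.841 and 3.94 CPM for the water channel PIP2;4, 0.704 and 3.87 CPM for the laccase LAC2, and 0.621 and 2.6 CPM for the secondary wall factor NAC073. They were 0.266 and 1.74 CPM for the elongase KCS13 and 0.241 and 2.14 CPM for PnsB1, a subunit of the chloroplast NDH complex.

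BBX14 (AT1G68520, chromosome 1, 25708175 to 25710989), a B-box zinc finger gene, had 0 to 1 count in every mutant library, at most 0.0483 CPM in tt5-4, against 39 counts or 2.6 CPM in Col-0. By the floor of 3 counts it was at least 6.33-fold lower in every mutant. It passed the filter through Col-0 alone, so no test of it is given. It overlaps AT1G68510 on the other strand.

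Among genes higher in the mutants, RCI2B (AT3G05890, chromosome 3, 1757440 to 1758807), a small membrane protein gene induced by cold and salt, lay at 63.3 CPM (ban-7), 109 CPM and 188 CPM (tt8-8) in the mutants, against 12.4 CPM in Col-0. Its log2 fold change was 3.16 ± 0.64 (adjusted p = 0.0124). Every mutant library was at least 5.1-fold above Col-0. The noncoding AT3G01795, its neighbour among the 176 genes, stood at 3.44 ± 0.63 (adjusted p = 0.00792). The paralog RCI2A lay at 571 to 1150 CPM in the mutants, against 449 CPM, and did not pass (0.86, adjusted p = 0.21). The 17 tested abscisic acid and cold genes had a median of −0.82, with RCI2B the 1 called (5.88%, beside 1.88% of all genes called higher). Their cold regulators lay on the other side: CBF2 at 8.86 to 57.5 CPM in the mutants against 91.5 CPM in Col-0 (adjusted p = 0.114), CBF1 at −1.51 (0.209) and DREB1A at −1.78 (0.274), none of them past the test.

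A pair of inhibitors of pectin-degrading enzymes was higher in the mutants. PMEI2 (AT3G17220, chromosome 3, 5883328 to 5884191), an inhibitor of pectin methylesterases, lay at 16.4 CPM (ban-6), 32.9 CPM and 46.2 CPM (tt8-7) in the mutants, against 4.47 CPM in Col-0 (2.85 ± 0.50, adjusted p = 0.00627). PGIP1 (AT5G06860), which inhibits fungal polygalacturonases, lay at 43.6, 70.2 and 130 CPM, against 12.1 CPM (2.62 ± 0.55, adjusted p = 0.0141). Col-0 lay below both ranges. Its neighbouring copy PGIP2 lay at 60.5 to 150 CPM in the mutants, around the 134 CPM of Col-0 (−0.51), and reads of the 2 may be shared, since the treatment of reads with several matches is unknown. The methylesterase PME2 was lower in the mutants (−1.28 ± 0.30, adjusted p = 0.0254, and 0.0819 with the GC offset). Over the 17 tested pectin genes 2 were called higher (11.8%) and 1 lower (5.88%), beside 1.88% and 1.28% of all genes, and the median was −0.47.

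Some genes were higher in the mutants with little spread among them. ARV1 (AT1G01020), a membrane protein gene of sterol and sphingolipid homeostasis, lay at 23.2, 27.2 and 30.0 CPM in the mutants, against 7.34 CPM in Col-0 (1.86 ± 0.17, adjusted p = 1.59e-05). ARV2 (AT4G01510), its homologue on another chromosome, lay at 9.7, 10.7 and 11.9 CPM, against 2.94 CPM (1.85 ± 0.18, adjusted p = 2.76e-05). The mutant libraries of both lie in a narrow band and Col-0 far under it. AtIPCS3, an inositol phosphorylceramide synthase named after its values were seen, stood at 1.83 ± 0.25 (adjusted p = 0.00125). WRKY50 (AT5G26170), a factor of salicylic acid and jasmonate defence, lay at 5.75, 6.76 and 9.66 CPM in the mutants, against 1.6 CPM in Col-0 (2.12 ± 0.29, adjusted p = 0.00124). It was the 1 called gene of 13 tested salicylic acid genes, whose median was 1.08, beside 1.88% called higher and a median of 0.01 over all genes. Of 13 genes of pattern immunity and camalexin edgeR called 0 and DESeq2 1, and 3 had p under 0.05 before adjustment. Col-0 lay below every mutant library at 5, beside 15.5% of all genes, with CYP71A13 (24 to 568 CPM in the mutants against 11.1 CPM in Col-0, adjusted p = 0.335) and PAD3 (2.4, 0.163), both enzymes of camalexin synthesis, among them. RBOH F, an oxidase that makes reactive oxygen for defence and for the Casparian strip, lay at 99.1 to 185 CPM, against 61.8 CPM (1.02 ± 0.27, adjusted p = 0.0458), a call lost with any of 7 libraries left out. With less than 1 CPM in Col-0, 7 further genes passed the filter through the mutants alone. The mutant means and Col-0 levels were 2.28 and 0.401 CPM for RGF5, a root meristem peptide gene, and 5.55 and 0.868 CPM for MMZ2, a variant of ubiquitin-conjugating enzymes that overlaps another gene on its strand. They were 4.56 and 0.668 CPM for MT1B, 2.11 and 0.0668 CPM for GSTU2, and 3.75 and 0.401 CPM for HB-3. RLP20 had 3.56 and 0.2 CPM, and SARD1, a regulator of salicylic acid synthesis, 3.45 and 0.267 CPM.

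Of 1046 tested genes annotated as uncharacterized proteins, 32 were called higher in the mutants and 7 lower, beside 1.88% and 1.28% of all genes. AT1G19394 lay at 2.37, 3.17 and 4.3 CPM in the mutants, against 0 counts in Col-0, at least 11.8-fold higher in every mutant library by the floor. It was named after its values were seen, and it overlaps AT1G19396 on the same strand, so the reads of the pair may be shared. Both passed the filter through the mutants alone. The 176 genes held 5 pairs of adjacent genes, among them this one, the snoRNA pair, TAS1C with TAS2, and RCI2B with AT3G01795. The 53 genes held 0. On the 5 chromosomes 104, 51, 79, 44 and 73 genes were called higher in the mutants and 66, 41, 43, 37 and 52 lower. As shares of the genes tested there, 2.12%, 1.81%, 2.16%, 1.54% and 1.66% were higher, near the 1.88% of all genes. The shares lower were 1.35%, 1.46%, 1.17%, 1.29% and 1.18%, near the 1.28% of all genes.

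**Figure D3:**
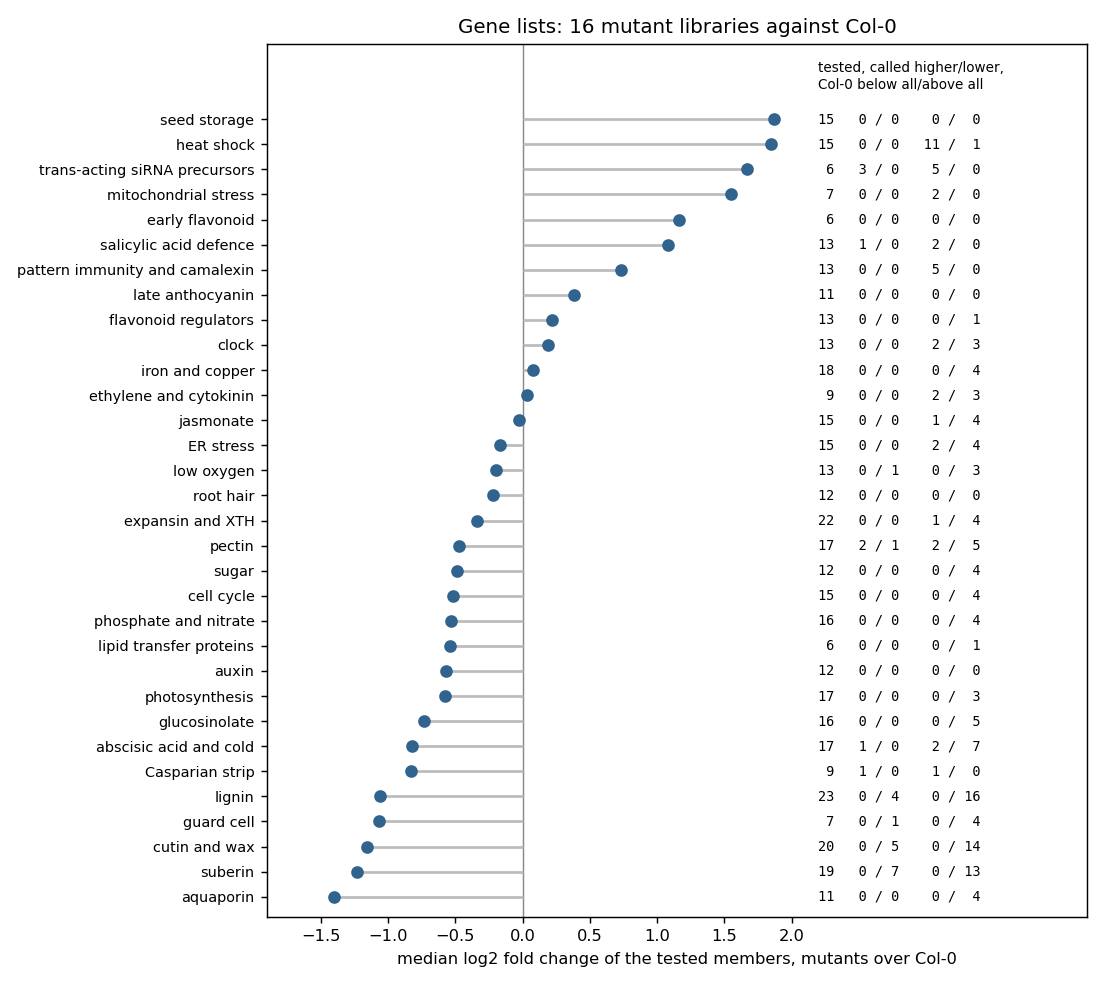
Median log2 fold change, mutants over Col-0, of the tested members of each gene list, ordered by that median, with the number tested, called higher and lower by edgeR, and the number at which Col-0 lay below or above every mutant library printed at the right. Suberin, cutin and wax, and lignin hold most of the lower calls, while seed storage and heat shock lists have the highest medians and 0 calls.

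Most other lists had few or no calls, and the mutants differed widely among themselves at many of their genes. Over all 433 tested list members, 8 were called higher (1.85%) and 19 lower (4.39%), beside 1.88% and 1.28% of all genes, and the median was −0.33. Heat shock genes had a median of 1.85, and edgeR called 0. Col-0 lay below every mutant library at 11 of 15 and above every one at 1, beside 15.5% and 16.2% of all genes. Before adjustment 6 had p under 0.05 (unadjusted), and DESeq2 called 4 higher. Their summed level was 451, 998 and 2280 CPM (lowest, median and highest) in the mutants, around the 1000 CPM of Col-0. HSP17.4, a small chaperone, lay at 2.88, 11.3 and 26.7 CPM in the mutants, against 1.74 CPM in Col-0 (2.83 ± 1.00, adjusted p = 0.128). Seed storage genes had a median of 1.87, 0 calls by edgeR and by DESeq2, 0 with p under 0.05 before adjustment, and summed levels of 1210 to 27800 CPM in the mutants, around the 2610 CPM of Col-0. The water channels of the aquaporin list had the lowest median, −1.40, with 0 calls by edgeR and by DESeq2 and 2 genes with p under 0.05 before adjustment. GAMMA-TIP, the vacuolar one, lay at 3.79, 34.0 and 265 CPM in the mutants, against 282 CPM in Col-0 (−2.10 ± 1.31, adjusted p = 0.387). Glucosinolate genes had a median of −0.73 and 0 of 16 called by edgeR and by DESeq2 (3 with p under 0.05 before adjustment), with the nitrile specifier NSP5 at 326 to 765 CPM in the mutants against 1050 CPM in Col-0 (−0.94, adjusted p = 0.129). Of 13 low-oxygen genes LBD41 alone was called (7.69%, beside 1.28% of all genes called lower). It lay at 265, 512 and 613 CPM in the mutants against 1110 CPM in Col-0 (−1.15 ± 0.25, adjusted p = 0.0196, and 0.0612 with the GC offset). Of the flavonoid genes, to which the mutated loci belong, 0 of 6 early, 0 of 11 late anthocyanin and 0 of 13 regulator genes were called by edgeR and by DESeq2, and before adjustment 0 had p under 0.05. Their medians were 1.16, 0.38 and 0.22, and that of the late genes was −0.36 in the fit by 7 groups. The lists that mark cell types gave sums in Col-0 within the mutant range: photosynthesis 147 to 600 CPM in the mutants against 411 CPM in Col-0, root hair 134 to 277 against 191 CPM and cell cycle 129 to 233 against 197 CPM. The Casparian strip list of the root endodermis, the tissue that lays down suberin, had a sum of 154 to 345 CPM in the mutants against 253 CPM in Col-0, and without RBOH F, the list's 1 called gene, 36.6 to 244 CPM against 192 CPM. Its median was −0.83, with 8 of 9 fitted values below 0, beside 18 of 19 for suberin. CASP1, which builds the strip, lay at 2.51 to 76.3 CPM in the mutants, around the 62.8 CPM of Col-0 (−1.17, adjusted p = 0.505), and PER64, a peroxidase of the strip, stood at −1.31 (0.383), a pair picked with their values in view. Of 10 guard cell and 20 photosynthesis genes in the files 7 and 17 passed the filter. Their part in the calls was not tested.

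In the remaining lists edgeR called 0 genes, and 0 to 5 genes of a list had p under 0.05 before adjustment. Mitochondrial stress genes had a median of 1.55 over 7 genes, with ascorbate peroxidase APX2 at 1.97, 4.46 and 16.9 CPM in the mutants, against 1.07 CPM in Col-0 (adjusted p = 0.31). Phosphate and nitrate genes had a median of −0.53, with 16 of 16 fitted values below 0. The nitrate transporter NRT1.1 lay at 609, 938 and 1220 CPM in the mutants, against 1450 CPM in Col-0 (−0.62, adjusted p = 0.199). Sugar genes had a median of −0.49, with Col-0 above every mutant library at 4 of 12, beside 16.2% of all genes, the hexose transporter STP1 at −1.0 (adjusted p = 0.122) and the starch synthesis subunit APL3 at −1.17 (0.293). Cell cycle genes had a median of −0.52, with the replication clamp PCNA1 at −0.86 (0.285), and photosynthesis genes of −0.58, with the light-harvesting protein LHCA2 at −1.15 (0.259). Medians were −0.57 for auxin, −0.54 for lipid transfer proteins, −0.34 for expansins and xyloglucan enzymes, −0.22 for root hairs, −0.17 for ER stress, −0.03 for jasmonate, 0.03 for ethylene and cytokinin, 0.08 for iron and copper and 0.19 for the clock. DESeq2 called 1 ER stress gene higher and none in the other lists of this paragraph.

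**Figure D4:**
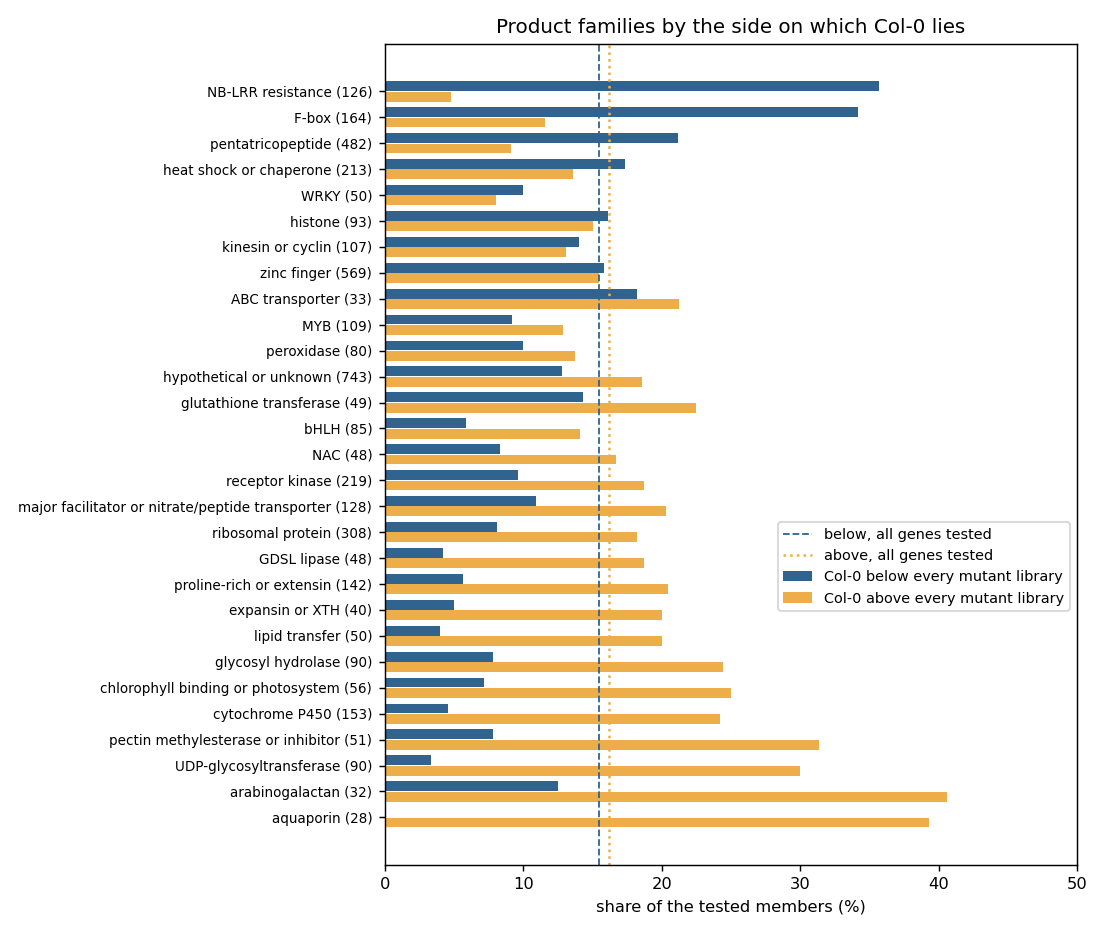
Share of the tested members of each product family (number tested in brackets) at which Col-0 lay below every mutant library (blue) or above every one (orange). The dashed and dotted lines mark the shares over all 18639 genes tested, 15.5% and 16.2%. Resistance and F-box genes have the longest blue bars (35.7% and 34.1%), and arabinogalactan proteins and aquaporins the longest orange ones (40.6% and 39.3%).

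By the product names of the annotation, Col-0 lay below every mutant library at 35.7% of 126 genes named for NB-LRR domains or disease resistance. It lay above every one at 4.76%, beside 15.5% and 16.2% of all genes. NB-LRR proteins are intracellular receptors of pathogen effectors, but the name pattern also takes in other proteins. The 126 had a median log2 fold change of 0.66 with 3 called higher (2.38%) and 1 lower (0.794%), beside 1.88% and 1.28% of all genes. The 1 lower, AT2G21100, is by its product a dirigent-like protein and no receptor. F-box genes, which choose proteins for degradation, had 11 of 164 called higher (6.71%, beside 1.88% of all genes) and 1 lower. AT2G26860 lay at 10.4, 13.9 and 19.1 CPM in the mutants, against 2.94 CPM in Col-0 (2.23 ± 0.28, adjusted p = 4.11e-04), and AT2G17036 at 5.46, 10.2 and 16.1 CPM, against 1.54 CPM (2.78 ± 0.54, adjusted p = 0.00974). On the other side 5 of 90 UDP-glycosyltransferases (5.56%, beside 1.28% of all genes), which attach sugars to small molecules, were called lower and 0 higher. Among them were UGT71C3 (−1.47, adjusted p = 0.0337) and UGT76C1 (−1.51, 0.043). Both calls were lost with the GC offset, with line ends as a term, in the fit by 7 groups and without the SAIL lines. That of UGT76C1 was also lost with any of 4 libraries left out. Of 153 cytochrome P450 genes 3 were lower (1.96%, near the 1.28% of all genes) and 0 higher, and Col-0 lay above every mutant library at 24.2%, beside 16.2% of all genes. Of 28 aquaporins the 1 call was PIP2;4, which passed the filter through Col-0 alone, so no test of it is given. At 39.3% of the 28 Col-0 lay above every mutant library and at 0% below every one, beside 16.2% and 15.5% of all genes. Of 308 ribosomal protein genes 0.974% were called higher and 1.62% lower, near the 1.88% and 1.28% of all genes, with AT4G29390, a ribosomal protein S30 gene, at 6.45 to 10.6 CPM in the mutants against 22.3 CPM in Col-0 (−1.33 ± 0.18, adjusted p = 0.00125).

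Base composition moved with the comparison. In genes with up to 36% GC in their exons 44 were called higher in the mutants (7.94%) and 1 lower (0.181%), of 554. In genes over 44% GC 6 were higher (0.308%) and 88 lower (4.51%), of 1950, beside 1.88% and 1.28% of all genes. The level of each class in a library, taken as the median over its genes of the log2 difference from the mutant-library median, was −0.25 to 0.16 in the mutants against −0.31 in Col-0 for genes up to 36% GC. For genes over 44% GC it was −0.04 to 0.03 in the mutants against 0.25 in Col-0. The transcript classes stood farther apart: for genes that are not protein-coding the level was −0.15 to 0.19 in the mutants against −0.75 in Col-0. Of these 195 genes 45 passed the filter through the mutants alone, against 402 of all 18639, and that filter lowers the Col-0 level of the class. Median GC was 38.5% in the 176 genes low in Col-0, 42.2% in the 53 high in Col-0 and 41.2% over all genes. With a GC offset 134 of the 176 and 42 of the 53 stayed at least 2-fold beyond every mutant library, and 89 and 31 of them were called. Of genes longer than 4000 exonic bases 35 were higher (4.17%) and 1 lower (0.119%), of 840. At the short end, genes of up to 300 bases, 6 of 35 were higher (17.1%) and 0 lower. These 6 include 4 snoRNA genes that passed the filter through the mutants alone, which fixes the side of their calls. The median log2 ratio to Col-0 over the 176 genes was 2.1 in the mutants with Windows files and 2.22 in those with Unix files, and over the 53 genes −2.23 and −2.19. Both kinds of file had to lie at least 2-fold from Col-0 for a gene to enter these sets. The side of these ratios is fixed by that rule, and they are no test of file kind. Whether base composition, transcript class or file kind sets any of the calls was not tested.

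**Figure D5:**
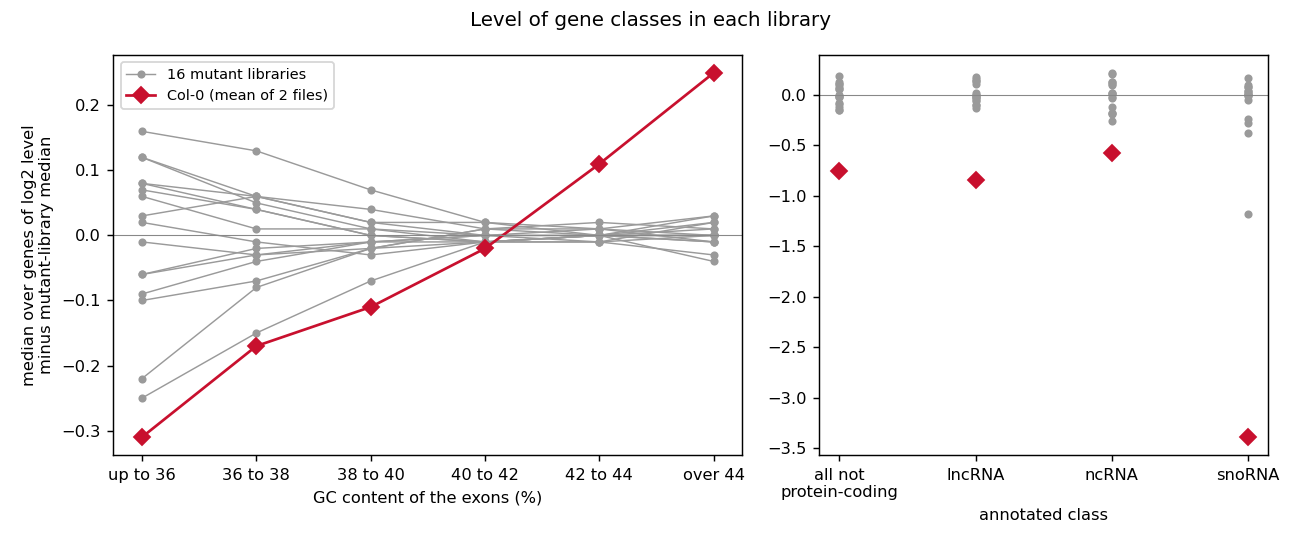
Median over genes of the log2 level minus the mutant-library median, by exonic GC content (left) and by annotated class of transcript that is not protein-coding (right), for the 16 mutant libraries (grey) and Col-0 (red diamonds). The Col-0 line climbs across the GC bins past the mutants at both ends, and Col-0 lies under all 16 mutants in each of the 4 classes. All 5 snoRNA genes passed the filter through the mutants alone, which fixes the side of Col-0 there. So did 45 of the 195 genes that are not protein-coding, against 402 of all 18639.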

How the data were processed

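The data were RNA-seq libraries of whole seedlings, 16 mutant and 2 Col-0. A stranded mRNA kit was used on 1 µg of total RNA and reads came from a single end, per the labels' protocols. The deposited values were raw read counts per gene, made by the authors with HISAT2 and the genome build TAIR 10 per the submitters' processing notes. No counter, strand setting or treatment of reads with several matches is given in the sources used here, so overlapping and near-identical genes are uncertain. Of 33939 rows per file 32547 were AT1G to AT5G loci. The other 1392 rows held 0.0064% to 0.0204% of a library's counts and were left out. Names, positions, product names and overlaps came from TAIR10.1, which matched all 32547 loci.

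Samples were grouped by their genotype label. The labels do not say whether libraries are separate cultures, so the p-values rest on the spread between these samples, which may be technical. As the Col-0 files agreed within sampling noise, their rounded mean is the 1 Col-0 sample. Genes entered where the mean of the mutant mean CPM and the Col-0 CPM reached 1, a filter that a gene high on either side alone can pass. The two-sided test was edgeR 4.0.16 (R 4.3.3) with TMM scaling, robust quasi-likelihood F-tests, 15 residual degrees of freedom and Benjamini-Hochberg adjustment over all 18639 genes at 0.05. Each adjusted p given without another name is from that test. On data simulated for this comparison over 18639 genes it called 46% of genes raised by a log2 change of 2 and 62% of those lowered by 2. At changes of 1 and −1 it called 2% and 8%, with 2 false calls among 18439 unchanged genes. The simulated Col-0 was given the spread of the mutants and no shift by base composition, transcript class or file. The simulation therefore cannot give the share of false calls among the real 590. The alternatives were another scaling, DESeq2 1.42.0, other filters, 7 groups by locus, Col-0 as 2 samples, the split of files by line ends, libraries left out, other folds, and, chosen after seeing the data, offsets for GC content and transcript length.

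The comparison, its members, the 32 gene lists (482 entries) and the product families were chosen with earlier results of these data known. The rule for named genes was the 6 targeted loci, the 12 genes with a symbol and the widest gap on each side, up to 4 members of a list and up to 2 of a family beyond every mutant library, widest gap first. Lists are described by counts and medians without a test of the list. The family pattern for ERF and AP2 also matched the word superfamily, and the one for defensins matched other cysteine-rich products, so neither is used.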

Additional observations from a re-analysis of the deposited data

How the results depend on the processing

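No called fold change of the 159 genes given by the naming rule changed sign under any alternative, and of 4445 recomputed values 4102 kept their side of the threshold, 206 lost it and 137 gained it. The 590 calls became 624 with other size factors and 4081 (47.3% higher) with Col-0 as 2 samples. They became 1334 in DESeq2, 102 (85.3% higher) with line ends as a term, 148 (77.7% higher) without the SAIL lines, 354 with the GC offset and 0 in the files with Windows line ends, where edgeR gave 1214 genes an unadjusted p under 0.05; 59.5% of the 590 were higher. Leaving out 1 mutant library gave 447 to 826 calls, with the 826 without ban-6. The 176 genes 2-fold low in Col-0 became 163 to 219 with 1 library left out, 707 in the files with Windows line ends, 455 at 1.5-fold and 61 at 3-fold. The 53 genes 2-fold high became 53 to 98, 777, 282 and 8 in the same settings, with 219 and 98 reached without ban-6. The Windows setting holds 2 mutant libraries, so Col-0 has fewer libraries to lie beyond there. The other folds change the cutoff itself. Col-0 as 2 samples counts files that agree within sampling noise as replicates. Beyond these differences in the settings, the cause of the shifts was not tested. Without a filter the median log2 fold change over all genes was 0.21. No paired analysis was possible because Col-0 is 1 sample and the mutant alleles share no replicate number with it. Counts near the floor of 3 limit genes such as the snoRNAs, and 1 Col-0 sample limits every comparison.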
